A study of Mus musculus with 6 samples.

Results

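The aminoacyl-tRNA synthetases were followed in sorted marrow cells of transplanted mice: 36 nuclear genes, of 25033 gene symbols listed, chosen by name as the enzymes of the cytosol (20 genes) and of the mitochondrion (16 genes, whose symbols end in 2). The rule uses names and no measured value, and all 36 were listed and passed the filter on low counts. The family itself was chosen with earlier results of these data known, so its shares beside those of all genes are descriptions. Haematopoietic stem cells (HSCs), the marrow cells that found all blood lineages, had been given an inhibitor of the microRNA miR-31-5p or a control RNA and transplanted. GFP+ HSCs, cells carrying green fluorescent protein, were later sorted from the recipients' bone marrow for RNA sequencing. The inhibitor group and the control group each held 3 libraries, from C57BL/6J mice aged 6 months in both. The labels do not say how GFP was introduced, what conditioning the recipients had, or whether each library stands for 1 animal or a pool, so the spread behind each p-value may be technical and is that between these libraries alone.

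An aminoacyl-tRNA synthetase joins an amino acid to its tRNA, the step that fixes the meaning of the genetic code. Class I enzymes share a Rossmann-fold active site with HIGH and KMSKS signatures, and class II enzymes an antiparallel active site and often work as dimers. In mammals several cytosolic enzymes are held with scaffold proteins in the multisynthetase complex, and the mitochondrial enzymes are imported from the cytosol. Gars and Kars each supply both compartments, and glutaminyl-tRNA in mitochondria is made by an amidotransferase without a glutaminyl-tRNA synthetase of its own. Many cytosolic synthetase genes are targets of ATF4, the transcription factor made when amino acids are scarce and eIF2 is phosphorylated. In blood stem cells a low rate of protein synthesis is a known feature.

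The agent blocked by the inhibitor was miR-31-5p, shown here because its seed sets which transcripts it can pair with (RefSeq, GRCm38.p6, chr4:88910614-88910635, minus strand; bases 2 to 8 in capitals).
mmu-miR-31-5p: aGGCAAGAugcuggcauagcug
The matching letters, TCTTGCC, were looked for in GENCODE release M21, taking for each gene its longest 3′ UTR. They stood in 1 of the 36 synthetase genes (2.78%) and in 1699 of 12266 tested genes with a 3′ UTR (13.9%). The synthetase gene was Tars, whose longest annotated 3′ UTR (3671 bases) exceeds its longest deposited transcript (2636 bases), so whether these cells carry the match is not given by the counts.
Tars, match in capitals: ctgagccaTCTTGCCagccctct
Tars was lower, not higher, in the inhibitor libraries, with values given further on.

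The promoters were read for TGATGNAA, the core of the C/EBP-ATF response element that ATF4 binds, in windows from 250 bases before to 50 after the start site (RefSeq, GRCm38.p6). The match could lie on either strand, N stands for any base, and no other motif was searched. It was found in 5 of the 27 synthetase genes with a promoter entry (18.5%), against 1219 of all 27025 genes with an entry (4.51%) and 298 of 10324 tested genes with an entry (2.89%). A site of each of the 5 genes is printed on the strand that reads TGATGNAA, with the match in capitals and 9 bases on each side, so that the calls of these genes can be set beside the letters. Positions give, from the start site, the base of the match that comes first along the gene. For Yars this is the first base of the match as printed. For the other genes, printed on the strand opposite to the gene, it is the last.
Aars (chr8:111033842-111033867, minus strand, 9): agagcgctcTGATGAAAagtgacccg
Gars (chr6:55037962-55037987, minus strand, -30): cccggtgcaTGATGAAAtagcgcagc
Iars (chr13:49682128-49682153, minus strand, 7): gtctggaggTGATGCAAtactgacag
Tars (chr15:11399657-11399682, plus strand, -15): ctaaccagcTGATGCAAcgggactcc
Yars (chr4:129189897-129189922, plus strand, 3): gagctcagcTGATGCAAcccgacggg
Of these 5 genes, Tars and Yars were lower in the inhibitor libraries and Aars, Gars and Iars did not pass the test. Cars, Hars, Lars, Nars, Rars, Vars, Wars, Hars2 and Pars2 had no promoter entry.

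The comparison asked whether the transcripts of the charging enzymes differ between cells whose forebears received the miR-31-5p inhibitor and cells that received the control RNA. Synthetase transcripts that changed were lower with the inhibitor, and the changes were small. Of the 20 cytosolic genes, 11 were lower (55%), 0 were higher and 9 did not pass an adjusted p of 0.05 (quasi-likelihood test of edgeR, Benjamini-Hochberg adjustment over all tested genes). Of the 16 mitochondrial genes, 4 were lower (25%), 0 were higher and 12 did not pass. Over all 12978 tested genes, 40.5% passed, 20.4% higher and 20.1% lower, so the mitochondrial share lower is near the background and the cytosolic share stands above it. The mitochondrial genes had lower counts and mostly larger SEs, and the difference between the shares of the compartments was not tested. No synthetase gene was higher at an unadjusted p under 0.05 in edgeR or at an adjusted p under 0.05 in DESeq2, where 10 cytosolic and 4 mitochondrial genes were lower. These 4 were not the same genes, since in DESeq2 Fars2 lost the call (adjusted p = 0.0596) and Lars2 gained it (adjusted p = 0.00159). DESeq2 called 2574 of all tested genes higher and 2390 lower.

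The median log2 change, inhibitor against control, was -0.15 for the cytosolic genes and -0.16 for the mitochondrial genes, against -0.01 for all tested genes. Among the 15 genes that passed, 13 changed by under 25%. All 3 inhibitor libraries lay below all 3 controls in 11 cytosolic and 9 mitochondrial genes, 20 of the 36 in all, against 26.5% of all tested genes. The reverse was seen in 0 of the 36, against 25.9% of all tested genes. Farsa, Farsb, Kars, Mars, Vars and Mars2 passed in each of 14 other fits, and the other 9 called genes did not pass in all of them. Without inhibitor library 1, and likewise without inhibitor library 2, 7 cytosolic genes were lower. For the mitochondrial genes the count was 2 without inhibitor library 2 and 7 without control library 2. Over all tested genes, 2613 were lower in the main fit. That count was 2057 without inhibitor library 1, 1934 without inhibitor library 2 and 2545 without control library 2. Leaving out control libraries 1 and 3 together makes control library 2 the only control. The median log2 change was then -0.17 for the cytosolic and -0.12 for the mitochondrial genes. In bulk RNA of sorted cells, fewer cells of a type that is rich in a transcript and less of it per cell cannot be told apart.

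**Figure D1:**
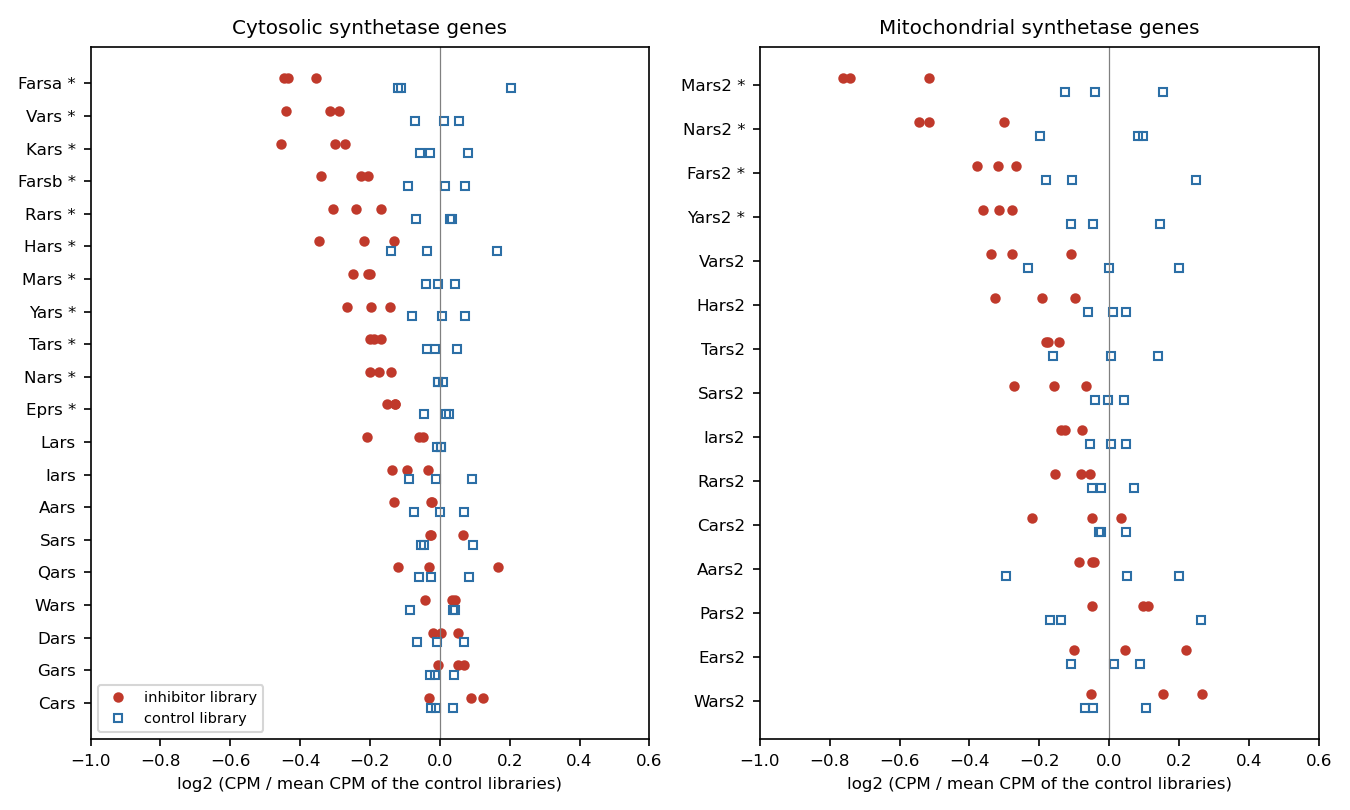
Each point is 1 library's CPM (normalised read counts scaled to library size) for a synthetase gene, as log2 of its ratio to the mean of the 3 control libraries (horizontal axis), with inhibitor libraries as filled circles and control libraries as open squares. Cytosolic genes are on the left and mitochondrial genes on the right, without Lars2; asterisks mark the 11 cytosolic and 4 mitochondrial genes past an adjusted p of 0.05, which all lie to the left of their controls apart from one overlapping library of Hars.

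The cytosolic enzymes that work outside the multisynthetase complex are described first. Of these 12 genes, 7 were lower (58.3%, against 20.1% of all tested genes). Vars encodes the valyl enzyme, which in mammals is bound to elongation factor 1 (chromosome 17, 35000907 to 35016329, mm10 as are all coordinates here). It had 316.2, 310.6 and 284.6 CPM in inhibitor libraries 1 to 3, against 401.6, 368.2 and 389.7 CPM in control libraries 1 to 3. Every inhibitor library was below every control, and the gap exceeded the range within either group. The means were 303.8 ± 16.9 and 386.5 ± 16.9 CPM (SD, n = 3 each), a fall of 21.4% or a log2 change of -0.35 ± 0.06 (± SE, adjusted p = 0.000266, quasi-likelihood test of edgeR, Benjamini-Hochberg). Adjusted p-values from here on come from that edgeR test unless DESeq2 is named.

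Phenylalanyl-tRNA synthetase of the cytosol is a tetramer of catalytic alpha and beta chains, and the genes of both chains were lower. Farsa, the alpha chain gene (chromosome 8, 84856969 to 84869257), had 93.9, 93.0 and 99.3 CPM in the inhibitor libraries, against 146.1, 117.4 and 116.8 CPM in the controls. The groups were separate, and control library 1 stood well above the other controls. The log2 change was -0.41 ± 0.08, the largest of the cytosolic genes (adjusted p = 0.000921). With each library left out in turn it was -0.46 to -0.30, smallest without control library 1, and it passed each time. Farsb, the beta chain gene (chromosome 1, 78417958 to 78488897), had 79.3, 73.2 and 80.4 CPM in the inhibitor libraries, against 93.6, 97.4 and 87.0 CPM in the controls. These did not overlap either, and the change was -0.26 ± 0.06 (adjusted p = 0.00544).

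Nars, the asparaginyl enzyme gene (chromosome 18, 64499655 to 64516515), had 231.8, 226.5 and 222.6 CPM in the inhibitor libraries, against 257.3, 254.8 and 254.4 CPM in the controls. Its controls lay within 3 CPM of each other, and the groups were separate by far more than that. The change was -0.17 ± 0.05 (adjusted p = 0.0143). Tars, the threonyl enzyme gene that holds the seed match and the promoter motif printed above (chromosome 15, 11383663 to 11399658), had 101.5, 100.6 and 102.9 CPM in the inhibitor libraries, against 119.7, 114.5 and 112.6 CPM in the controls. Again no inhibitor library reached a control, and the change was -0.19 ± 0.06 (adjusted p = 0.0144). The call of Nars was lost without inhibitor library 2, inhibitor library 3 or control library 3 (adjusted p = 0.0601, 0.0714 and 0.0524), and that of Tars without inhibitor library 1 or 2 (adjusted p = 0.0519 and 0.0618).

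Yars, the tyrosyl enzyme gene, also with the promoter motif (chromosome 4, 129189734 to 129219240), had 76.0, 82.9 and 79.8 CPM in the inhibitor libraries, against 96.1, 91.8 and 86.5 CPM in the controls. The groups were separate, by a margin of less than the range within either of them. The change was -0.20 ± 0.06 (adjusted p = 0.019). Hars, the histidyl enzyme gene (chromosome 18, 36766528 to 36783205), had 59.8, 65.5 and 69.4 CPM in the inhibitor libraries, against 85.1, 74.0 and 68.9 CPM in the controls. It was the called cytosolic gene whose groups overlapped, since inhibitor library 3 lay above control library 3. The change was -0.23 ± 0.08 (adjusted p = 0.0344). The call of Yars was lost without inhibitor library 1 or 3 (adjusted p = 0.0976 and 0.0627). That of Hars was lost without inhibitor library 1, inhibitor library 2 or control library 1 (adjusted p = 0.164, 0.085 and 0.0634), and without control library 1 its change was -0.14.

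In the multisynthetase complex, 4 of the 8 synthetase genes were lower (50%, against 20.1% of all tested genes). Of the 3 scaffold genes, 2 were lower with them. Without each library in turn, 4 to 6 of these 11 genes were lower, settings that gave 1877 to 2843 lower genes in all. The median log2 change of the 8 was -0.12, against -0.18 for the 12 cytosolic genes outside the complex, and the difference between these medians was not tested. Kars, the lysyl enzyme gene (chromosome 8, 111993439 to 112011354), had 153.2, 150.1 and 134.8 CPM in the inhibitor libraries, against 195.4, 177.7 and 181.4 CPM in the controls. The groups were well apart, with means of 146.0 ± 9.85 and 184.8 ± 9.34 CPM (SD, n = 3 each). The change was -0.34 ± 0.06, a fall of 21.0% (adjusted p = 0.000529).

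Rars, the arginyl enzyme gene (chromosome 11, 35808381 to 35834528), had 96.0, 91.4 and 87.3 CPM in the inhibitor libraries, against 110.2, 103.1 and 110.7 CPM in the controls. Mars, the cytosolic methionyl enzyme, which also charges the initiator tRNA (chromosome 10, 127296221 to 127311786), had 97.0, 93.7 and 96.5 CPM in the inhibitor libraries, against 114.9, 110.9 and 108.4 CPM in the controls. Neither gene had a library that crossed into the other group. The changes were -0.24 ± 0.06 for Rars (adjusted p = 0.00558) and -0.22 ± 0.06 for Mars (adjusted p = 0.00579). Against control library 2 alone, the change of Rars was -0.17. Eprs, which encodes a fused glutamyl and prolyl enzyme (chromosome 1, 185361417 to 185428360), averaged 244.5 ± 2.06 CPM in the inhibitor libraries and 268.6 ± 7.25 CPM in the controls (SD, n = 3 each). Its change of -0.14 ± 0.05 was the smallest that passed (adjusted p = 0.0469). The call of Eprs held in 4 of the 14 other fits: without any one of 5 libraries (all but control library 1) its adjusted p was 0.117 to 0.174, and it was 0.0676 in DESeq2.

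Of the scaffolds, Aimp2, a core scaffold, had 27.2, 24.3 and 25.2 CPM in the inhibitor libraries, against 32.1, 33.1 and 30.7 CPM in the controls, groups that did not overlap. Its change was -0.32 ± 0.08 (adjusted p = 0.00697), but the call was lost once GC content and length were corrected for (adjusted p = 0.0593). Eef1e1, the smallest scaffold, had 23.5, 21.9 and 25.8 CPM in the inhibitor libraries, against 31.4, 26.9 and 27.1 CPM in the controls. Its groups were separate by about 1 CPM, and the change was -0.26 ± 0.10 (adjusted p = 0.0401). That call was lost without inhibitor library 1 or 2 or control library 1 or 3 (adjusted p = 0.106, 0.162, 0.0957 and 0.0539). Aimp1, which is also released as a cytokine precursor, had a change of 0.06 ± 0.06 and did not pass (adjusted p = 0.475).

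The 9 cytosolic genes that did not pass had log2 changes between -0.10 and 0.06. Lars, the leucyl enzyme that also serves as a leucine sensor for mTORC1, was the one among them with separate groups. It had 126.3, 113.1 and 125.4 CPM in the inhibitor libraries, against 130.0, 131.1 and 130.9 CPM in the controls (log2 change -0.10 ± 0.06, adjusted p = 0.169). Iars (-0.09 ± 0.06) and Dars (0.01 ± 0.06) of the same complex did not pass, and nor did Qars (0.01 ± 0.07). Iars passed without control library 1 (log2 change -0.13, adjusted p = 0.0168). Among the free enzymes, Aars had a change of -0.06 ± 0.06, Sars 0.00 ± 0.06, Wars, whose gene is known to be induced by interferon gamma, 0.01 ± 0.06, Gars 0.04 ± 0.05 and Cars 0.06 ± 0.07. A missed threshold does not show that these genes did not differ, given SEs of 0.05 to 0.07 on the log2 scale.

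The mitochondrial genes were read at lower levels. The median over genes of the mean level per transcript length was 10.5 CPM per kb in the inhibitor libraries and 12.2 CPM per kb in the controls, and for the cytosolic genes it was 43.3 CPM per kb in the inhibitor libraries and 48.5 CPM per kb in the controls. Lengths are the longest deposited transcripts, and these differ by more than 1.5-fold from the longest GENCODE transcript for 7 of the 36 genes (Aars, Dars, Tars, Ears2, Fars2, Iars2 and Mars2), so single levels per length are uncertain. The lowest count of any member in a library was 154.

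Mars2, the mitochondrial methionyl enzyme, which supplies both initiation and elongation in the organelle (chromosome 1, 55237177 to 55240058), showed the largest change of the family that passed. It had 13.2, 13.0 and 15.4 CPM in the inhibitor libraries, against 21.4, 24.5 and 20.2 CPM in the controls. The highest inhibitor library was well under the lowest control. Means were 13.9 ± 1.34 and 22.1 ± 2.23 CPM (SD, n = 3 each), a fall of 37.1% or a log2 change of -0.67 ± 0.11 (adjusted p = 0.000212).

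Nars2, the mitochondrial asparaginyl enzyme gene (chromosome 7, 96950839 to 97064758), had 10.8, 9.16 and 9.33 CPM in the inhibitor libraries, against 11.6, 14.1 and 14.3 CPM in the controls. The groups were separate, though control library 1 lay nearer to the inhibitor libraries than to the other controls. The change was -0.45 ± 0.13 (adjusted p = 0.0108), and it did not pass without inhibitor library 2 (adjusted p = 0.0507). Yars2, the tyrosyl enzyme of the organelle (chromosome 16, 16302965 to 16309640), had 26.2, 25.4 and 26.9 CPM in the inhibitor libraries, against 36.03, 31.5 and 30.2 CPM in the controls. No library crossed over, and the change was -0.32 ± 0.09 (adjusted p = 0.0107). Against control library 2 alone, the change of Yars2 was -0.27.

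Fars2, which as a single chain charges mitochondrial phenylalanyl-tRNA (chromosome 13, 36117428 to 36537595), had 14.2, 13.7 and 13.1 CPM in the inhibitor libraries, against 20.2, 15.04 and 15.8 CPM in the controls. The groups were separate by about 1 CPM, and control library 1 was far above the other controls. The change was -0.32 ± 0.12 (adjusted p = 0.0489), and it passed in 3 of the 14 other fits. Without control library 1 it was -0.18 (adjusted p = 0.217) and in DESeq2 -0.31 (adjusted p = 0.0596). Without inhibitor library 1, 2 or 3 or control library 3 the adjusted p was 0.0844, 0.11, 0.147 and 0.0525.

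Of the 12 mitochondrial genes that did not pass, Lars2 is taken apart below. The other 11 had log2 changes between -0.24 (Vars2) and 0.13 (Wars2), with adjusted p-values of 0.0643 to 0.773. Hars2 (-0.20 ± 0.08), Iars2 (-0.11 ± 0.06), Rars2 (-0.10 ± 0.08) and Sars2 (-0.16 ± 0.09) had every inhibitor library below every control without passing. Vars2 (-0.24 ± 0.11), Tars2 (-0.17 ± 0.08), Cars2 (-0.08 ± 0.09) and Aars2 (-0.06 ± 0.12) overlapped, as did Pars2 (0.06 ± 0.14), Ears2 (0.06 ± 0.12) and Wars2 (0.13 ± 0.12). Some would be called with 1 library fewer: Vars2 and Tars2 without control library 2 (log2 change -0.34 and -0.24, adjusted p = 0.0139 and 0.0279), and Iars2 without control library 1 (-0.14, adjusted p = 0.0156).

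Lars2, the mitochondrial leucyl enzyme gene (chromosome 9, 123366927 to 123462675), behaved unlike every other member and was chosen after its values were seen. It had 57.1, 46.5 and 45.5 CPM in the inhibitor libraries, against 277.2, 83.4 and 904.9 CPM in the controls. The inhibitor libraries lay close together, while the highest control was more than 10 times the lowest. The log2 change of -3.08 ± 1.03 did not pass (adjusted p = 0.0814). It passed in DESeq2 (-3.08, adjusted p = 0.00159) and without control library 2 (-3.57, adjusted p = 0.0288), but not without control library 3 (-1.85, adjusted p = 0.122). Against control library 2 alone, with controls 1 and 3 both left out, the log2 change was -0.75.

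Rn45s, the precursor ribosomal RNA gene, likewise chosen after its values were seen, had 161.4, 117.7 and 105.3 CPM in the inhibitor libraries, against 1006, 183.2 and 2897 CPM in the controls. The libraries fell in the same order for both genes, from control 3 through control 1 and control 2 to inhibitor 1, 2 and 3. The library totals implied by the deposited RPKM values exceeded the summed counts by 0.22 to 0.35% in the inhibitor libraries and by 2.82, 0.49 and 8.68% in control libraries 1 to 3, so the same controls stood out there. The part these library differences play in the Lars2 counts was not tested.

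**Figure D2:**
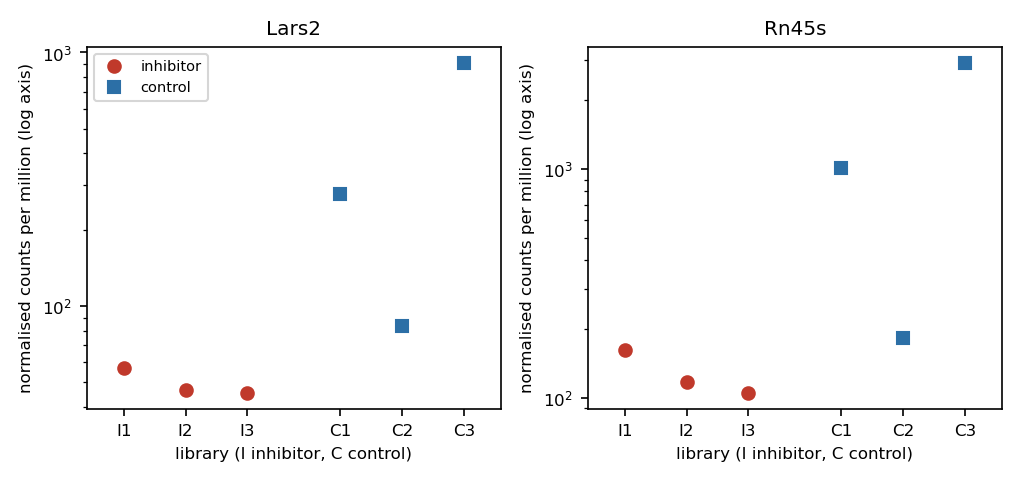
Normalised read counts scaled to library size (CPM, logarithmic axes) of Lars2 (left) and the precursor ribosomal RNA gene Rn45s (right) in inhibitor libraries 1 to 3 (circles) and control libraries 1 to 3 (squares). Both genes were highest in control library 3 (904.9 and 2897 CPM), then control library 1 (277.2 and 1006 CPM), and lowest in the inhibitor libraries.

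Control library 1 was high for many genes of the family. Centred on the mean of the 6 libraries, the average log2 level of the 20 cytosolic genes was -0.07, -0.08 and -0.07 in the inhibitor libraries, against 0.11, 0.06 and 0.05 in the controls. For the 15 mitochondrial genes without Lars2 it was -0.07, -0.10 and -0.09 in the inhibitor libraries, against 0.15, 0.04 and 0.06 in the controls. On both scores the inhibitor libraries lay close to each other and below every control, and control library 1 was the highest. It was the highest control for 19 of the 36 synthetase genes (52.8%) and for 5643 of all 12978 tested genes (43.5%). Without it 11 cytosolic and 4 mitochondrial genes were lower, the same numbers as with it but not the same genes. Hars and Fars2 lost the call (adjusted p = 0.0634 and 0.217), and Iars and Iars2 gained it (adjusted p = 0.0168 and 0.0156).

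Set side by side by amino acid, 16 amino acids had a measured enzyme gene in each compartment. For methionine, asparagine, tyrosine and phenylalanine both the cytosolic and the mitochondrial gene were lower, counting Farsa and Farsb together. For glutamate, proline, arginine, histidine, threonine and valine the cytosolic gene passed and the mitochondrial gene did not. Neither passed for alanine, cysteine, isoleucine, leucine, serine and tryptophan. The difference between the partners of a pair was not tested. By catalytic class, 7 of 19 class I genes (36.8%) and 8 of 17 class II genes (47.1%) were lower, against 20.1% of all tested genes. Eprs, the gene of the fused glutamyl and prolyl enzyme, was counted in class I only, while Pars2, the mitochondrial prolyl enzyme gene, was counted in class II. In either class 0 were higher, against 20.4% of all tested genes, and the medians were -0.11 and -0.17. Without inhibitor library 1 to 3 or control library 1 to 3 in turn, 5 to 9 class I and 3 to 9 class II genes were lower. In those fits 1877 to 2843 of all tested genes were lower.

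Some member genes share exon bases with a neighbour in GENCODE release M21, and as no source used here gives the strand of counting, reads of such pairs cannot be told apart. Hars and Hars2, head to head on chromosome 18, share 195 bases. Iars2 shares 2034 bases with Rab3gap2, which was itself lower (-0.18 ± 0.06, adjusted p = 0.0229). Mars shares 68 bases with Ddit3, whose change was 0.07 ± 0.13. Yars shares 30 bases with C77080, which was higher (1.01 ± 0.09, adjusted p = 5.51e-07), that is, opposite to Yars. Aars shares 1326 bases on its own strand with Exosc6, which was lower (-0.44 ± 0.13, adjusted p = 0.0154), Farsb shares 248 with Sgpp2, which had under 0.6 CPM in every library, and Fars2 shares 115 with Lyrm4.

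Genes that make, modify and proofread tRNA formed one of the partner lists, chosen by function with earlier results of these data known. Of 24 tested, 11 were lower (45.8%, against 20.1% of all tested genes), 0 were higher (against 20.4%) and 13 did not pass. Their median log2 change was -0.22, and 0 were higher at an unadjusted p under 0.05 or in DESeq2, which called 11 lower. Both parts of the enzyme that methylates guanine in the variable loop of tRNA fell: Mettl1, its catalytic subunit, with a log2 change of -0.72 ± 0.13 (adjusted p = 0.000348), and its partner Wdr4 with -0.49 ± 0.10 (adjusted p = 0.000998). Nsun2, a cytosine methyltransferase of tRNA, fell by 0.29 ± 0.05 on the log2 scale (adjusted p = 0.000362), and Trmt61a, the catalytic subunit of the adenine methyltransferase, by 0.56 ± 0.11 (adjusted p = 0.00096). Pop1, a subunit of RNase P, which trims tRNA leaders, had a change of -0.38 ± 0.08 (adjusted p = 0.000894). The count of lower genes was 7 without inhibitor library 2, a setting that gave 1934 lower genes in all.

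Charged tRNAs are delivered to the ribosome by elongation factors. Of 7 cytosolic genes, 4 were lower (57.1%, against 20.1% of all tested genes), 0 were higher and 3 did not pass. Eif5a, a factor that carries hypusine and eases peptide bond formation, had a change of -0.52 ± 0.07 (adjusted p = 2.95e-05). Of the exchange factor of elongation factor 1, the subunit genes lower were Eef1d (-0.41 ± 0.08) and Eef1g (-0.27 ± 0.07), and the scaffold gene Eef1e1 counts here again. Eef1a1, the carrier of charged tRNA itself, had 0.00 ± 0.05, Eef1b2 0.00 ± 0.06 and Eef2, the translocation factor, 0.12 ± 0.05, none past the threshold. Eef2 was higher at an unadjusted p under 0.05 in edgeR, DESeq2 called 0 genes higher, and without control library 1 the list had 1 gene higher.

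Of 12 mitochondrial translation factor genes, 4 were lower (33.3%), 1 was higher (8.33%) and 7 did not pass, so that in all their share of calls was near the 40.5% of all tested genes. The elongation factor genes Tufm (-0.41 ± 0.07, adjusted p = 0.000251) and Gfm1 (-0.36 ± 0.06, adjusted p = 0.00015) fell, as did the initiation factor gene Mtif3 (-0.41 ± 0.11, adjusted p = 0.00562). Tsfm, the exchange factor of Tufm, was also called (-0.39 ± 0.14, adjusted p = 0.039), though its groups overlapped, and the call was lost without inhibitor library 2 or 3 or control library 1 (adjusted p = 0.117, 0.127 and 0.148). Without control library 1 its change was -0.19. Mrrf, the ribosome recycling factor gene, rose by 0.31 ± 0.10 on the log2 scale (adjusted p = 0.0186), and that call was lost without inhibitor library 2 or 3 or control library 3 (adjusted p = 0.0602, 0.0653 and 0.0588). The genes of the amidotransferase that makes mitochondrial glutaminyl-tRNA, Qrsl1 (-0.15 ± 0.12), Gatb (-0.10 ± 0.11) and Gatc (0.07 ± 0.08), did not pass.

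**Figure D3:**
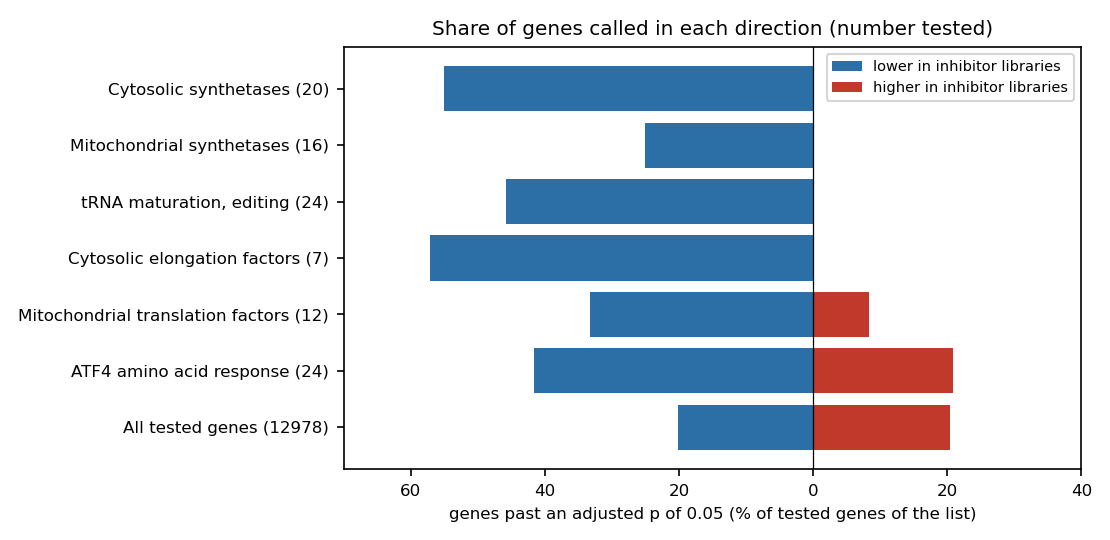
Share of the tested genes of each list (number in parentheses) that passed an adjusted p of 0.05, in percent, to the left for genes lower in the inhibitor libraries and to the right for genes higher. The cytosolic synthetases have 55% lower and 0 higher and the mitochondrial synthetases 25% lower and 0 higher, against 20.1% lower and 20.4% higher over all 12978 tested genes.

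The ATF4 response to amino acid shortage, which includes many synthetase genes, held genes called in both directions. Of the 13 synthetase genes listed as ATF4 targets in mammalian cells, 6 were lower (46.2%, against 20.1% of all tested genes) and 0 were higher, with a median of -0.10. The count of lower genes was 3 of 13 without inhibitor library 1, 2 or 3, settings under which 1877 to 2057 of all tested genes were lower. Atf4 had 217.9, 213.0 and 177.4 CPM in the inhibitor libraries, against 297.6, 259.9 and 261.2 CPM in the controls, and the groups were separate. Its log2 change was -0.43 ± 0.08 (adjusted p = 0.000636). ATF4 is controlled mainly at translation, so its mRNA is no measure of the protein.

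Of the 24 other genes of the amino acid response that were tested, Atf4 included, 10 were lower, 5 were higher and 9 did not pass, around a median change of -0.17. The share higher (20.8%) was near the 20.4% of all tested genes, and the share lower was 41.7%, against 20.1% of all tested genes. Among those lower were Phgdh (-0.61 ± 0.06, adjusted p = 1.52e-06) and Psat1 (-0.36 ± 0.05, adjusted p = 5.58e-05), enzymes of serine synthesis, and Nupr1, a stress-induced chromatin protein (-1.80 ± 0.30, adjusted p = 0.000205). Those higher were Slc7a11, the cystine transporter (1.93 ± 0.11, adjusted p = 2.67e-09), Sesn2, a leucine sensor that restrains mTORC1 (0.56 ± 0.10, adjusted p = 0.000311), Trib3, a pseudokinase (1.31 ± 0.31, adjusted p = 0.00355), and 2 named after their values were seen, Chac1, which breaks down glutathione (1.67 ± 0.35, adjusted p = 0.00143), and Slc3a2, the heavy chain of amino acid transporters (0.19 ± 0.06, adjusted p = 0.0294). Trib3 was rare, at 2.98, 4.20 and 3.96 CPM in the inhibitor libraries, against 2.41, 1.15 and 0.94 CPM in the controls, with control library 1 nearest to the inhibitor libraries. Ddit3, the CHOP factor gene (0.07 ± 0.13), and Asns, asparagine synthetase (0.12 ± 0.08), did not pass (adjusted p = 0.725 and 0.257).

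**Figure D4:**
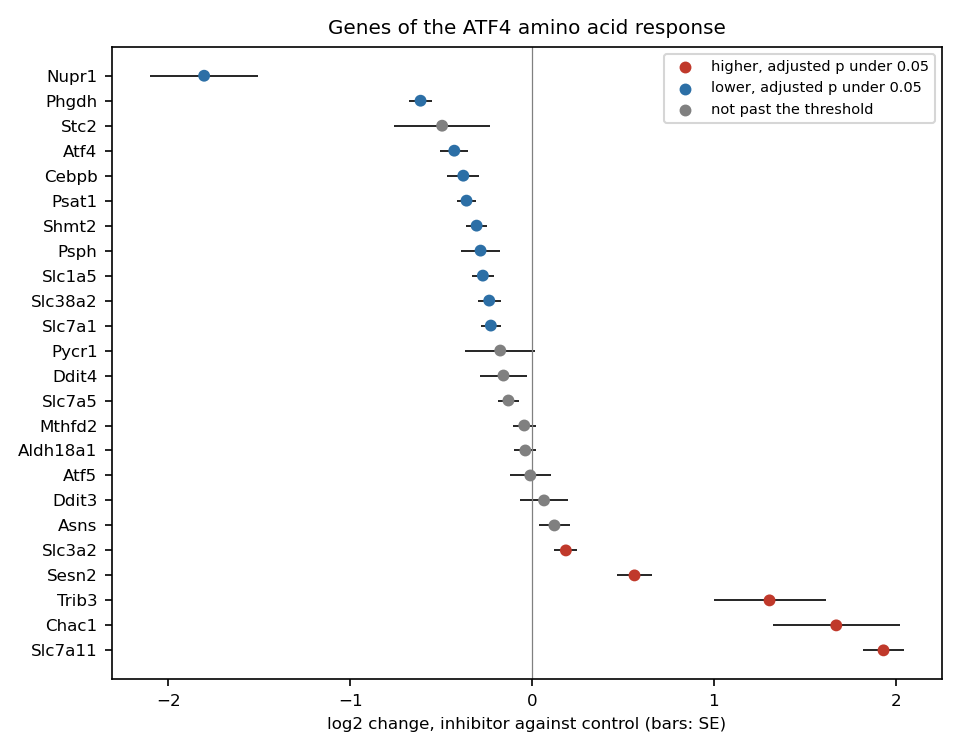
Log2 change, inhibitor against control, of the 24 tested genes of the ATF4 amino acid response (horizontal axis, bars are ± SE from edgeR, n = 3 libraries per group), ordered by size. Points are coloured by call at an adjusted p of 0.05: 10 genes lower, including Atf4 at -0.43, 5 higher, from Slc3a2 at 0.19 to Slc7a11 at 1.93, and 9 not past the threshold.

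Among 7 genes of the eIF2 switch that precedes ATF4, the kinase genes Eif2ak1 to Eif2ak4 did not pass. Ppp1r15a, the stress-induced subunit that directs a phosphatase to eIF2, rose by 1.22 ± 0.10 on the log2 scale (adjusted p = 3.3e-07). Eif2s1, the subunit that is phosphorylated, had a change of -0.15 ± 0.05 (adjusted p = 0.0373), and that call was lost in DESeq2 (adjusted p = 0.0642) and without any one of 5 libraries, all but control library 1 (adjusted p = 0.0659 to 0.135).

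Library totals were 16873188 to 19496200 counts in the inhibitor group and 19866738 to 21245861 in the control group, so that a floor of 3 counts is 0.141 to 0.178 CPM. Within a group, libraries differed beyond counting noise, by a chi-square over its degrees of freedom of 3.04 to 4.24 for inhibitor pairs and 7.55 to 16.78 for control pairs, and each served as a replicate. Of 8 HSC markers, 7 were tested, 2 of them higher (Procr and Slamf1), 2 lower (Ly6a and Hlf) and 3 not past the threshold. Kit (406.0 and 401.7 CPM, inhibitor and control means) and Cd34 (387.4 and 362.6 CPM) were abundant, while the stem cell genes Mecom and Fgd5 were under 1 CPM in both groups and Procr was at 7.54 and 1.06 CPM. Markers of other cells moved with the groups. The summed level of 6 myeloid genes was 6642 to 6818 CPM in the inhibitor libraries and 8603 to 9448 CPM in the controls (4 of 6 lower). The other 2 lay higher in every inhibitor library than in every control without passing. They were Itgam (115.3 and 105.9 CPM, inhibitor and control means) and Csf1r (453.6 and 438.6 CPM). The summed level of 5 megakaryocyte genes was 2747 to 2876 CPM in the inhibitor libraries against 1104 to 1322 CPM in the controls (5 of 5 higher). That of 3 plasmacytoid dendritic genes was 147.3 to 154.4 CPM in the inhibitor libraries against 244.0 to 288.0 CPM in the controls (3 of 3 lower). The 4 erythroid genes summed to 4.49 to 5.43 CPM in the inhibitor libraries against 1.15 to 1.36 CPM in the controls, with 2 of the 3 tested higher. Most of that sum was Hbb-bs (3.51 CPM in the inhibitor libraries and 0.44 CPM in the controls), and Klf1 lay lower in every inhibitor library than in every control without passing (-1.38 ± 0.55). T cell genes reached at most 1.59 CPM in the inhibitor libraries, against 3.85 CPM in the controls, with Cd3e and Cd3d at or near 0 in both groups. The part of these marker differences in the synthetase changes was not tested.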

How the data were processed

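RNA was taken with Trizol from sorted GFP+ marrow cells and made into mRNA libraries (VAHTS kit), per the labels' protocols. The authors deposited read counts per gene symbol for 3 inhibitor and 3 control libraries, not normalised, and RPKM values, per the file headers. The deposited RPKM were used only to compare library totals. Build mm10 and bcl2fastq 2.20 come from the submitters' processing notes; no source used here gives the aligner, counting tool or strand. Gene tables were matched to GENCODE M21 (24264 by accession, 435 by symbol, 334 unmatched).

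Counts were filtered (edgeR filterByExpr, minimum count 10, minimum total 15), leaving 12978 genes, and normalised by TMM, with factors between 0.985 and 1.008. The test was the robust quasi-likelihood test of edgeR (4.0.16, under R 4.3.3), adjusted by Benjamini-Hochberg over all genes, with a threshold of 0.05. The fit was tested on simulated data, with 50 changed genes at each size of change. It recovered 19 of 50 at 1.25-fold, 44 at 1.5-fold, 46 at 2-fold and 49 at 4-fold, and called 4 unchanged genes. In this simulation changes of 1.25-fold were thus missed more often than found. It held 200 changed genes in all, while 5259 genes passed in the real data. As the adjustment depends on that number, the shares recovered need not hold for these data. Levels are TMM-normalised CPM. Intervals of counting error are not given; floors cover counting error only.

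Values by library were given for the 10 cytosolic members with the smallest p-values and the called mitochondrial members, and up to 5 called genes of each partner list with the smallest p-values were named, with Atf4, Ddit3, Trib3, Asns, Aimp1, Aimp2 and Eef1e1. Other partner genes were chosen after their values were seen. The members and lists were chosen with earlier results of these data known. Alternatives were RLE size factors, no and stricter (1 CPM, mean of 10 counts) filters, the replicate block, each library or control libraries 1 and 3 left out, thinning, DESeq2 1.42.0, an adjusted p of 0.1, and a GC and length correction (loess span 0.4) chosen after seeing the data. Sequences were read with Python 3.11.15. Trac and Gcn1l1 were not analysed here, and 1 promoter site and the B cell markers are not reported here.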

Additional observations from a re-analysis of the deposited data

How the results depend on the processing

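Each library was left out in turn, which gave 7 to 11 lower cytosolic genes, 2 to 7 lower mitochondrial genes, 3 to 7 lower ATF4-target synthetases, 3 to 9 lower class II genes, 0 to 3 lower eIF2 genes, 0 to 1 higher elongation factor genes, 0 to 1 higher mitochondrial translation factors and 7 to 13 lower tRNA maturation genes. Over all tested genes these fits gave 1877 to 2843 lower and 2181 to 2849 higher genes. With control libraries 1 and 3 both left out, control library 2 was the only control, so counts of called genes per list are not given for that fit. It is among the 14 other fits counted above. The GC and length correction gave 13 lower cytosolic, 6 lower mitochondrial, 11 lower class I and 3 lower eIF2 genes and 1 higher elongation factor gene, with 2770 genes higher and 3135 lower in all. An adjusted p of 0.1 gave 7 lower mitochondrial genes, 2 lower eIF2 genes and 1 higher elongation factor gene. In all it gave 3130 higher and 3235 lower genes. RLE size factors gave 1 higher elongation factor gene, and 0 eIF2 genes were lower with no filter or with DESeq2. The cause of these shifts was not tested. Over the 36 members and the partner genes that the naming rule took, 849 values kept direction and call, 58 lost the call, 17 gained it and 21 changed sign, none of these past the threshold on either side.

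The sign changes were as follows. With control libraries 1 and 3 left out, Aars was at 0.013, Dars at -0.059 and Gars at -0.0040. After the GC and length correction Dars was at -0.052 and Cars2 at 0.0076, and after thinning Sars was at -0.016. With 1 library left out, Dars ranged from -0.020 to 0.053, Qars from -0.071 to 0.071, Sars from -0.028 to 0.053, Wars from -0.024 to 0.038, Aars2 from -0.18 to 0.053, Ears2 from -0.026 to 0.14, Pars2 from -0.018 to 0.21 and Ddit3 from -0.047 to 0.21. The cause was not tested.

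With the replicate number as a block, 10 cytosolic and 4 mitochondrial genes were lower, and 2831 genes were higher and 2842 lower in all. Same-numbered libraries deviated together with correlations of 0.06, 0.01 and 0.04, and control library 2 correlated best with another number, so the numbers were not taken to pair the samples. Groups of 3 libraries limit what can be called: SEs were 0.05 to 0.14 on the log2 scale for the members other than Lars2.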
